A study of Mus musculus with 6 samples.

Results

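The SLC25 family are mostly carrier proteins of the inner mitochondrial membrane, built from repeats of a short membrane-spanning unit. Most move a metabolite, nucleotide, cofactor or ion between the cytosol and the mitochondrial matrix. They supply the ATP synthase with ADP and phosphate, export the ATP it makes, and carry the amino acids, acids and reducing equivalents that link glycolysis to the tricarboxylic acid cycle. In dividing cells several of these carriers are also known for feeding nucleotide, lipid and glutathione metabolism. Members were taken as every row of the deposited expression table whose symbol was SLC25A followed by a number, which gave 42 of 14915 rows. Family members that carry other names, such as the uncoupling proteins, were kept apart as context, and SLC25A1, the citrate carrier, was not analysed here.

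RNA-seq measured expression in cells labelled as the mouse melanoma line B16F10, in 3 libraries of ZBTB5-S127A cells and 3 libraries of wild-type (WT) cells. ZBTB5 is a transcription factor with a BTB domain and zinc fingers, and in ZBTB5-S127A cells its serine at the named position, a site that can be phosphorylated, is replaced with alanine. Both groups received TNFα, an inflammatory cytokine, while amino acids were limited, so every difference is one between genotype labels under treatment. The study asked how this site affects transcription when inflammation activates mTORC1, and its labels do not say whether the S127A line is 1 clone or whether the replicates were separate cultures. The p-values thus rest on a spread between libraries that could be technical.

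Values are TPM, a transcript abundance in which reads are divided by gene length and library total, so that levels can be set side by side between genes. Library depth cannot be read from TPM and is unknown, and the spread between the 3 libraries of a group is the error given (SD, n = 3). Log2 differences are S127A minus WT on log2(TPM + 1), which understates the change of low genes, and adjusted p-values are from limma across all 10348 genes with a mean of at least 1 TPM. In bulk RNA, fewer cells of a type and less RNA per cell cannot be told apart. The defining markers of the labelled melanoma line were nearly absent from the S127A libraries, which thus go against their label. All 10 melanocyte markers were lower in S127A (background 49.8% of tested genes). Of these, TYR, SOX10, SLC45A2, OCA2 and GPR143 reached the mean of 1 TPM only through WT. The 10 markers summed to 27.8 to 33.3 TPM in S127A libraries and 15408 to 15705 TPM in WT libraries. The pigment-cell factor SOX10 stood at 0.48 to 0.71 TPM in S127A and 337.55 to 346.5 TPM in WT. Of 10 fibroblast markers, 6 were tested, 5 higher (background 40.2%) and 1 lower (background 49.8%). COL1A1, PDGFRA and FAP reached the mean of 1 TPM only through S127A, and POSTN only through WT. The 10 summed to 301 to 313 TPM in S127A and 16.1 to 17.2 TPM in WT, mostly from COL1A2 in S127A. LUM and THY1 were listed at 0 in all S127A libraries. Immune markers summed to 48.6 to 51.3 TPM in S127A and 7.2 to 8.28 TPM in WT, mostly from CD14 in S127A and from CD68 in WT, with PTPRC at no more than 0.1 TPM in any library. CD14 was higher in S127A (background 40.2%), though it was listed at 0 in all WT libraries and was tested only through S127A. CD68 was lower (background 49.8%), at 4.69 ± 0.409 TPM in S127A and 7.64 ± 0.601 TPM in WT. Endothelial or epithelial markers summed to 63.5 to 64.4 TPM in S127A and 1.37 to 1.86 TPM in WT, nearly all from KRT18 in S127A, with CDH5 at no more than 0.03 TPM. The part of these marker differences in the carrier results was not tested. Whether both groups are the same cell line was not tested either, so an effect of the mutation and a difference between lines cannot be told apart in any result.

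Of the 42 carriers, 38 reached the mean of 1 TPM and were tested. In S127A, 13 were higher, 24 were lower and 1, SLC25A36, did not pass. Thus 97.4% of tested carriers changed, against a background of 90.0% of all tested genes, so that a change in itself says little about the family. Higher carriers made up 34.2% against a background of 40.2%, and lower carriers 63.2% against a background of 49.8%. The median log2 difference was -0.48 over the carriers and -0.12 over all tested genes, and the median size of the difference, whatever its sign, was 0.71 and 0.69. At least 2-fold differences numbered 15 (39.5%, background 35.4%), 8 higher (background 15.5%) and 7 lower (background 19.9%). The libraries of both groups did not overlap for 37 of the 38 tested carriers, against 90.2% of all tested genes. Scaling by TMM factors raised the median of all genes by 0.12 on the log2 scale and made the background 44.9% higher and 44.8% lower, whereas the counts of 13 higher and 24 lower carriers stayed as they were.

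**Figure D1:**
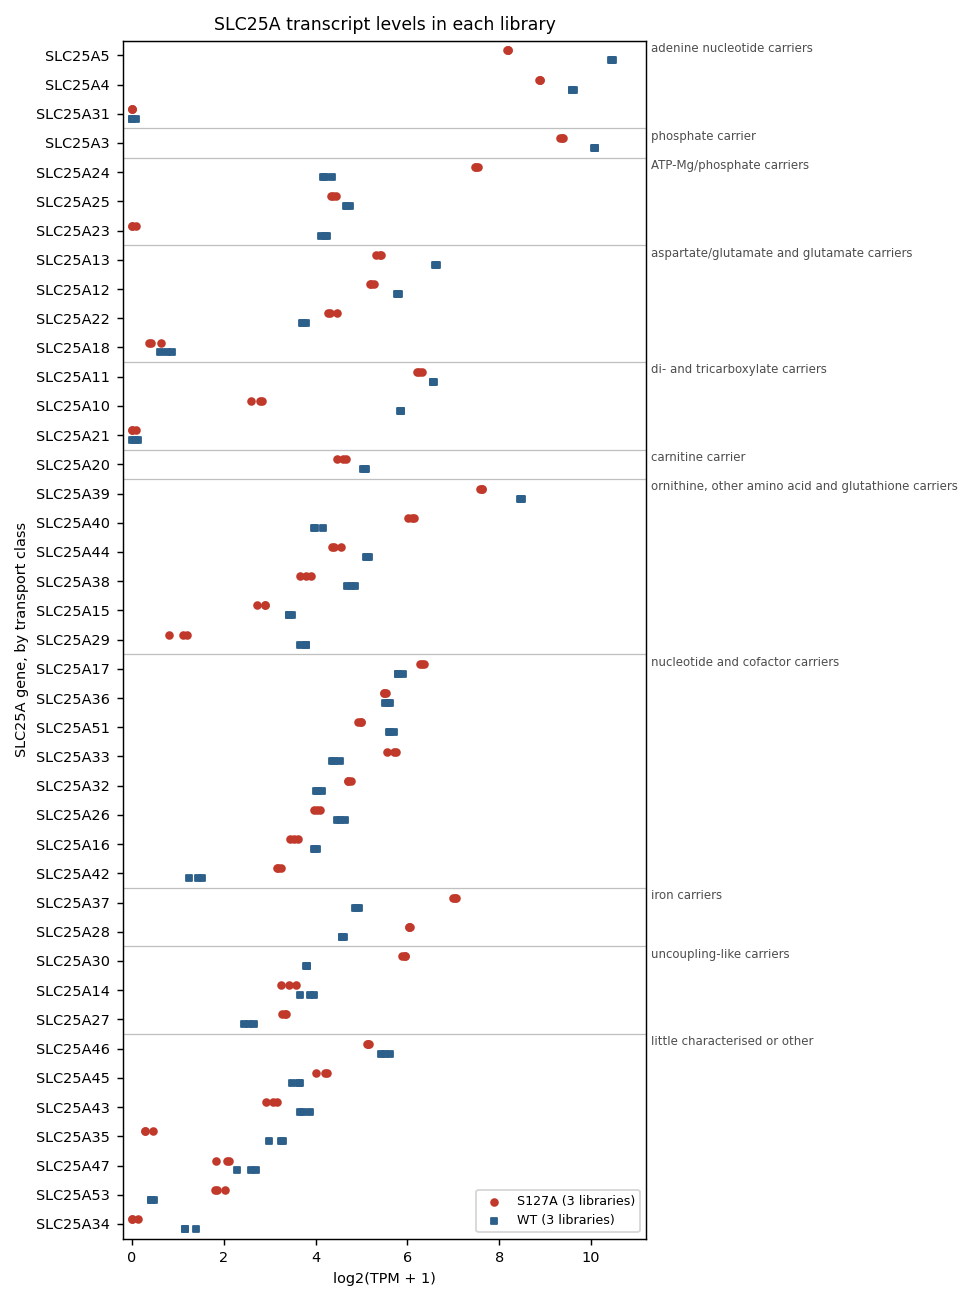
Level of 41 of the 42 carriers in every library, as log2(TPM + 1) on the horizontal axis, with genes down the page by transport class. Circles are the 3 S127A libraries and squares the 3 WT libraries. The libraries of a group lie close together, SLC25A24, SLC25A37 and SLC25A30 stand to the right in S127A, and SLC25A5, SLC25A10 and SLC25A23 stand to the left.

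The filter on low values left out SLC25A18, SLC25A21, SLC25A31 and SLC25A34. SLC25A34, at a mean of 0.697 TPM over the 6 libraries, lay just below the limit, and SLC25A53, at 1.54 TPM, was the nearest member above it. The mean runs over both groups, so SLC25A23, SLC25A35 and SLC25A53 passed the filter only through the group where they were high. The same holds for UCP2 and GPD1, named below as context. It also holds for KRT18, CD14 and the other markers named above as tested only through a single group. For such genes the filter itself favours a large difference, so their calls are weaker evidence. SLC25A34, a little-characterised carrier, was listed at 0, 0.09 and 0 TPM in S127A and at 1.63, 1.22 and 1.24 TPM in WT. SLC25A31, the adenine nucleotide carrier of testis, was listed at 0 in every library except 1 WT library with 0.06 TPM. The oxodicarboxylate carrier SLC25A21 did not exceed 0.1 TPM in any library.

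The upstream DNA of 4 carriers is shown here because they cover both directions and several roles. SLC25A24 and SLC25A23 are the close relatives with the largest rise and the largest fall on log2(TPM + 1). With a pseudocount of 5, SLC25A10 (-2.54) and SLC25A5 (-2.25) fell further than SLC25A23 (-2.15). SLC25A28 is an iron carrier that was higher, and SLC25A5 is the carrier that led the family in WT and was lower in S127A. Each is the 200 bases before a transcription start in RefSeq (GRCm38.p6, the assembly of mm10), 5′ to 3′ on the strand of the gene. Capitals mark GGGCGG, the core of the GC box bound by SP and KLF factors, or its reverse complement.
SLC25A24, chr3:109122949-109123148, plus strand: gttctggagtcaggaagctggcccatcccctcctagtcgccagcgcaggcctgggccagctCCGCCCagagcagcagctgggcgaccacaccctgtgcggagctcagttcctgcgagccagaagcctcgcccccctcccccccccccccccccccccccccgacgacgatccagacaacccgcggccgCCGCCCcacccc
SLC25A23, chr17:57059864-57060063, minus strand: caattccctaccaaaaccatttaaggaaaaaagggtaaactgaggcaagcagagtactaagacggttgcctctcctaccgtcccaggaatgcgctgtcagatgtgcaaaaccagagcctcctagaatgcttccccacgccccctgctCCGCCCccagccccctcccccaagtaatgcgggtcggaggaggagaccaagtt
SLC25A28, chr19:43674882-43675081, minus strand: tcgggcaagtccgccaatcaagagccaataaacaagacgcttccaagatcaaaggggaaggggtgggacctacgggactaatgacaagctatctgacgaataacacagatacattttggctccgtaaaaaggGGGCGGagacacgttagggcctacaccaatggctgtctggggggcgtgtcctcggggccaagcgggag
SLC25A5, chrX:36795397-36795596, plus strand: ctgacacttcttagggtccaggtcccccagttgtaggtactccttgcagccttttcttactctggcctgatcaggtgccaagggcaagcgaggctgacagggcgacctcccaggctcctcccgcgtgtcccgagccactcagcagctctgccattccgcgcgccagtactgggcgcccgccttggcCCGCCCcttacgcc
In the stretches shown, SLC25A24 held 2 matches and the other 3 held 1 each. The motif thus stood upstream of carriers that were higher and of carriers that were lower. Counted from another RefSeq start of SLC25A23, matches began at positions -74 and -14, so the number of matches depends on the start chosen. The GC content of the stretch was 74.5% for SLC25A24, 55.5% for SLC25A23, 55% for SLC25A28 and 65.0% for SLC25A5.

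RefSeq promoter windows, which run from 250 bases before to 50 bases after a start, were found for 33 of the 42 carriers, in 43 windows. GGGCGG, searched on both strands, was in 83.7% of carrier windows, in 64.6% of the 10245 windows of tested genes and in 35.7% of all 32851 windows of that length. Counted by gene it was held by 28 carriers. These included all 10 higher carriers with a window and 15 of the 18 lower ones. A share by gene was not computed over all tested genes. CACGTG, the E-box core read by MYC and by MITF and its relatives, was in 16.3% of carrier windows and 10.1% of windows of tested genes. It was held by SLC25A13, SLC25A14 and SLC25A15, which were lower, by SLC25A33, which was higher, by SLC25A36, which did not pass, and by SLC25A31, which was not tested. CCGGAAG, an ETS core, was in 14% of carrier windows and 17.7% of those of tested genes. TGACGTCA, the cyclic AMP response element, stood at 4.65% against 3.12%, and TGANTCA, the AP-1 element, at 4.65% against 4.89%. TATAAA, the TATA box, was in 4.65% of carrier windows and 6.65% of those of tested genes. The carriers that held it, SLC25A18 and SLC25A21, were not tested. GCGCATGC, the NRF1 core, was in 2.33% of carrier windows and 5.6% of those of tested genes. The carrier that held it, SLC25A31, was not tested. TGATGCAA, a C/EBP-ATF element, was not matched in a carrier window, and stood in 0.615% of windows of tested genes. The motifs were counted separately, overlaps between them were allowed, and a match describes letters and not binding.

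The carriers of oxidative phosphorylation were the most abundant members and all were lower in S127A (background 49.8%). SLC25A3 carries phosphate into the matrix for ATP synthesis, and SLC25A4 and SLC25A5 exchange ADP for ATP. These 3 genes summed to 1396, 1438 and 1415 TPM in S127A libraries and 3264, 3220 and 3255 TPM in WT libraries. Their share of the family's summed TPM was 52.0% ± 0.418 in S127A and 71.8% ± 0.111 in WT. The sum over the other 39 carriers was 1309 ± 7.11 TPM in S127A and 1275 ± 15.98 TPM in WT. The lower family total of 2725 ± 20.5 TPM in S127A, against 4522 ± 39.2 TPM in WT, thus lay in these 3 genes.

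SLC25A5 (ENSMUSG00000016319.3, chromosome X, 36795651 to 36798807, plus strand, mm10), the adenine nucleotide carrier known from dividing cells, had the larger difference of the pair. It stood at 291.66, 290.38 and 284.67 TPM in S127A and at 1400.5, 1375.04 and 1412.6 TPM in WT. All S127A libraries lay far below all WT libraries, with a log2 difference of -2.27 (SE 0.0261, limma adjusted p = 5.07e-14). SLC25A4 (chromosome 8, 46206797 to 46211284, minus strand), the carrier known from heart and muscle, stood at 462.57, 474.98 and 472.57 TPM in S127A and at 793.33, 761.87 and 762.83 TPM in WT. Its libraries did not overlap either, and the log2 difference was -0.72 (SE 0.028, limma adjusted p = 7.14e-10). SLC25A3 (chromosome 10, 91116574 to 91124059, minus strand) stood at 641.73, 672.26 and 657.58 TPM in S127A and at 1070.63, 1083.41 and 1079.9 TPM in WT, a log2 difference of -0.71 (SE 0.0272, limma adjusted p = 5.62e-10). SLC25A3 and SLC25A4 moved by nearly the same factor as the family sum, so that SLC25A3 made up 24.1% ± 0.389 of it in S127A and 23.8% ± 0.337 in WT, and SLC25A4 17.2% ± 0.113 and 17.1% ± 0.319. SLC25A5 made up 10.6% ± 0.187 of the family sum in S127A and 30.9% ± 0.223 in WT. The order of the 3 therefore differed, with SLC25A3 above SLC25A4 above SLC25A5 in S127A and SLC25A5 above SLC25A3 above SLC25A4 in WT, each step beyond the spread of the libraries. SLC25A4 and SLC25A5 are close in sequence and the annotation names a pseudogene of SLC25A5, so their levels are uncertain where the authors' counting shared reads between copies.

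**Figure D2:**
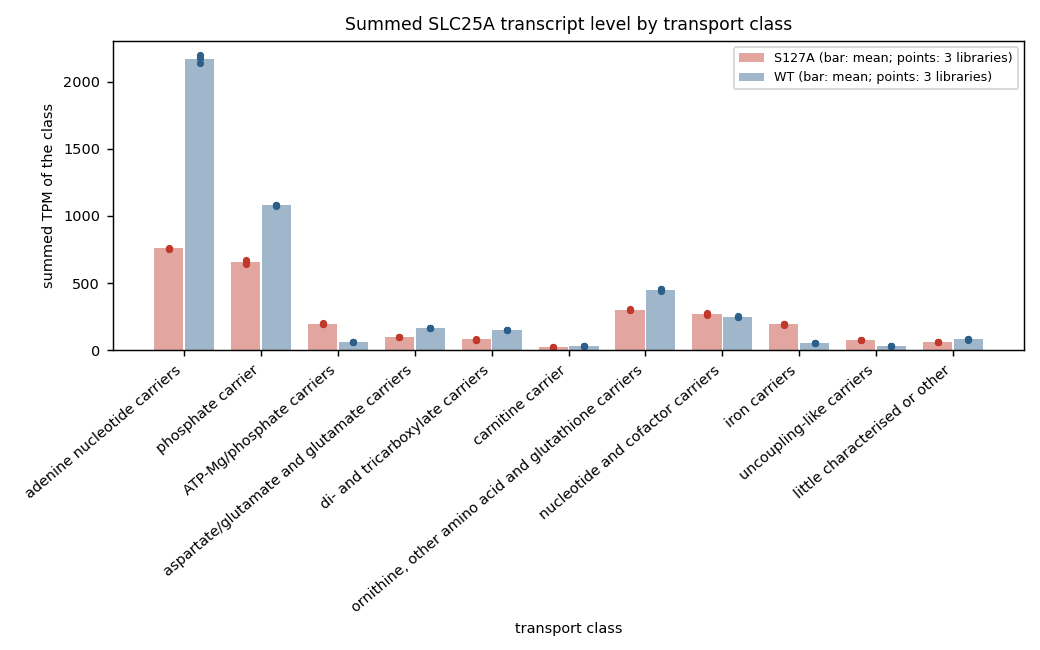
Summed TPM of each transport class (vertical axis) by class (horizontal axis). Bars are group means and points the 3 libraries of S127A (left of each pair) and of WT (right). The adenine nucleotide carriers sum to 759 TPM in S127A and 2169 TPM in WT, whereas the ATP-Mg/phosphate, iron and uncoupling-like classes are higher in S127A.

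The ATP-Mg/phosphate carriers exchange ATP-Mg for phosphate and are switched on by calcium, which lets them set the adenine nucleotide content of the matrix. The class summed to 199.9 ± 2.42 TPM in S127A and 60.2 ± 1.03 TPM in WT, and its 3 tested genes changed in different directions. SLC25A24 (chromosome 3, 109123149 to 109168457, plus strand) had the largest rise in the family. It stood at 183.25, 179.75 and 176.84 TPM in S127A and at 19.41, 16.97 and 17.47 TPM in WT, a 10.02-fold ratio of means (log2 difference 3.26, SE 0.0489, limma adjusted p = 3.05e-13). SLC25A23 (chromosome 17, 57043711 to 57059863, minus strand) went the other way and was listed at 0.07, 0 and 0 TPM in S127A and at 16.32, 17.51 and 17.88 TPM in WT. Its fitted log2 difference of -4.16 (SE 0.0712, limma adjusted p = 8.13e-13) depended on the pseudocount, at -7.18 with 0.1 and -2.15 with 5, since the S127A libraries were at or near 0. SLC25A25, the stress-induced member, stood at 19.14, 19.79 and 20.81 TPM in S127A and at 24.35, 24.79 and 25.97 TPM in WT. That smaller difference of -0.32 (SE 0.0504, limma adjusted p = 0.000121) passed, and was -0.20 with TMM factors. An antisense gene overlaps exons of SLC25A23 and the gene Naif1 those of SLC25A25, and since the strand setting is not given in the sources used here, reads from opposite strands may be mixed.

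Because a share within a library does not depend on how libraries were scaled, close relatives were also set against each other as percentages of their summed TPM. SLC25A24 made up 90.0% ± 0.523 of the ATP-Mg/phosphate class in S127A and 29.8% ± 2.16 in WT, where SLC25A25 was the leading member at 41.6% ± 0.938. SLC25A5 made up 38.1% ± 0.55 of the SLC25A4 and SLC25A5 pair in S127A and 64.4% ± 0.549 in WT. SLC25A40 made up 25.6% ± 1.13 of its pair with SLC25A39 in S127A and 4.19% ± 0.295 in WT. In each of the 7 sets the shares of the S127A libraries lay wholly outside those of the WT libraries. That says little about relatives, since by level 90.2% of all tested genes did not overlap either. The set of SLC25A18 and SLC25A22 also rests on an untested gene, with SLC25A18 at no more than 0.83 TPM in any library. An exact two-sided permutation test gave p = 0.1 for each of the 7, also after Benjamini-Hochberg adjustment, the smallest value that 3 against 3 libraries allows.

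**Figure D3:**
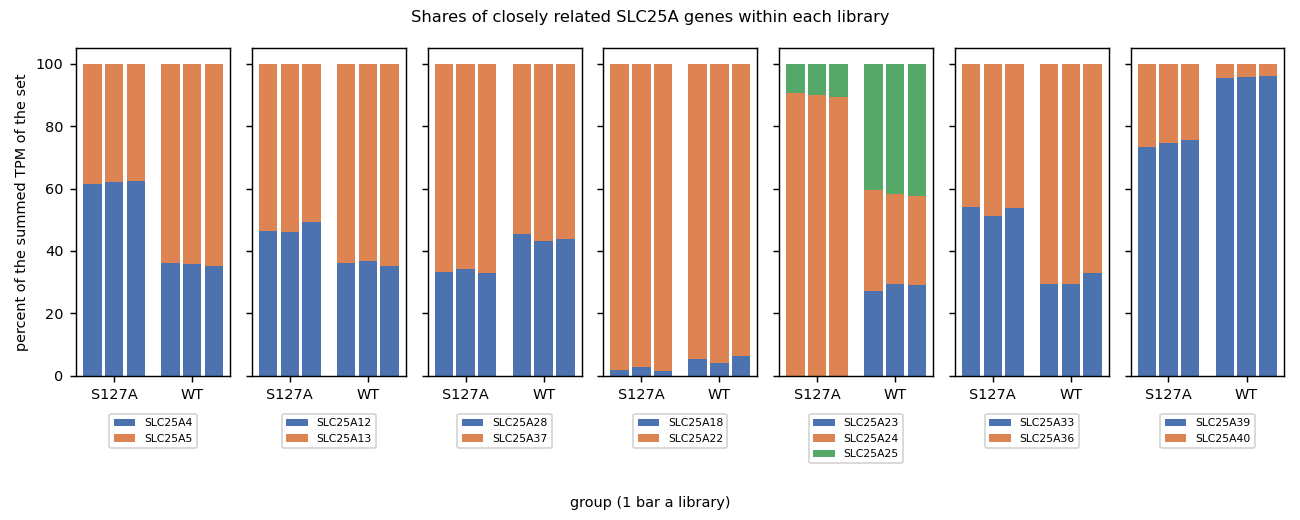
Share of each gene in the summed TPM of its set of close relatives (vertical axis, percent), 1 bar a library, with the S127A libraries left of the WT libraries in each panel. SLC25A24 fills 90.0% of its set in S127A and 29.8% in WT, and SLC25A5 38.1% and 64.4% of its pair.

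Both iron carriers were higher in S127A (background 40.2%). SLC25A37 (mitoferrin 1) and SLC25A28 (mitoferrin 2) bring iron into the matrix for haem and iron-sulphur cluster synthesis, and their sum was 193.7 ± 2.39 TPM in S127A and 52.0 ± 0.514 TPM in WT. SLC25A37 (chromosome 14, 69241848 to 69285112, minus strand), best known from developing red cells, stood at 129.52, 125.75 and 131.14 TPM in S127A and at 28.14, 29.83 and 29.07 TPM in WT. It was 4.44-fold higher by means (log2 difference 2.11, SE 0.0371, limma adjusted p = 9.88e-13). SLC25A28 (chromosome 19, 43663801 to 43674881, minus strand), the form of most other tissues, stood at 64.61, 65.37 and 64.69 TPM in S127A and at 23.48, 22.76 and 22.74 TPM in WT (log2 difference 1.46, SE 0.0375, limma adjusted p = 2.07e-11). SLC25A37 was the more abundant of the pair in both groups, at 66.5% ± 0.616 of their sum in S127A and 55.8% ± 1.14 in WT. An antisense gene overlaps exons of SLC25A37.

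Uncoupling-like carriers, named for their likeness to the uncoupling proteins, summed to 78.6 ± 2.45 TPM in S127A and 31.2 ± 1.91 TPM in WT. Of the 3, 2 were higher (background 40.2%). SLC25A30 (chromosome 14, 75760117 to 75787037, minus strand), first described in kidney, stood at 60.83, 60.66 and 58.28 TPM in S127A and at 13, 13.13 and 12.89 TPM in WT. The S127A values were 4.61-fold those of WT by means (log2 difference 2.12, SE 0.0419, limma adjusted p = 2.41e-12). SLC25A27, a brain carrier, averaged 8.99 ± 0.277 TPM in S127A and 4.86 ± 0.481 TPM in WT and rose by 0.77 on the log2 scale, or by 0.51 with a pseudocount of 5. SLC25A14 averaged 9.7 ± 1.26 TPM in S127A and 13.3 ± 1.51 TPM in WT and fell by 0.42. Among relatives under other symbols, UCP2, an uncoupling protein of many cell types, stood at 14.48, 14.28 and 14.11 TPM in S127A and at 0.53, 0.3 and 0.32 TPM in WT (log2 difference 3.47, limma adjusted p = 7.8e-12, and 1.84 with a pseudocount of 5). UCP1 and UCP3 did not exceed 0.07 TPM in any library. The outer-membrane relatives MTCH1 and MTCH2 were both lower in S127A, by log2 differences of -0.84 and -0.35, the second of which was -0.23 with TMM factors and -0.20 with quantile normalization.

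The carriers of the malate-aspartate shuttle, which passes cytosolic reducing equivalents to the matrix, were all lower in S127A (background 49.8%). SLC25A13 (citrin), which exports aspartate for glutamate, stood at 41.69, 41.37 and 38.89 TPM in S127A and at 96.76, 95.3 and 98.88 TPM in WT (log2 difference -1.23, SE 0.0387, limma adjusted p = 1.06e-10). SLC25A12 (aralar), the isoform known from brain and muscle, stood at 36.03, 35.12 and 37.73 TPM in S127A and at 54.76, 55.47 and 53.76 TPM in WT, and fell by 0.58 (SE 0.0403, limma adjusted p = 1.06e-07). The levels of the isoforms were closer in S127A, where SLC25A13 made up 52.8% ± 1.81 of their sum, than in WT, where it made up 63.9% ± 0.789. SLC25A11, the oxoglutarate/malate carrier, stood at 73.26, 74.95 and 78.18 TPM in S127A and at 93.03, 94.62 and 92.82 TPM in WT. Its difference of -0.31 (SE 0.035, limma adjusted p = 7.95e-06) was -0.19 with TMM factors, and Rnf167 on the opposite strand overlaps its exons. SLC25A22, which brings glutamate into the matrix with a proton, was the tested glutamate carrier that rose, with 18.16, 18.92 and 21.1 TPM in S127A and 12.74, 11.93 and 12.26 TPM in WT (log2 difference 0.61, SE 0.0632, limma adjusted p = 3.26e-06). Its relative SLC25A18 was too low to be tested, at 0.33, 0.56 and 0.3 TPM in S127A and at 0.71, 0.52 and 0.83 TPM in WT, groups that overlap.

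SLC25A10 (chromosome 11, 120491840 to 120499187, plus strand), the dicarboxylate carrier that exchanges malate and succinate for phosphate, had one of the deepest falls. It stood at 4.99, 5.94 and 6.14 TPM in S127A and at 57.44, 57 and 56.43 TPM in WT (log2 difference -3.12, SE 0.067, limma adjusted p = 4.77e-12). The WT level was 10.01-fold the S127A level, and no S127A library came near a WT library. An antisense gene overlaps its exons. SLC25A20, which carries acylcarnitines in for fatty acid oxidation, stood at 21.12, 24.32 and 23.32 TPM in S127A and at 33.44, 31.83 and 32.91 TPM in WT. The log2 difference was -0.50 (SE 0.0557, limma adjusted p = 6.58e-06).

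**Figure D4:**
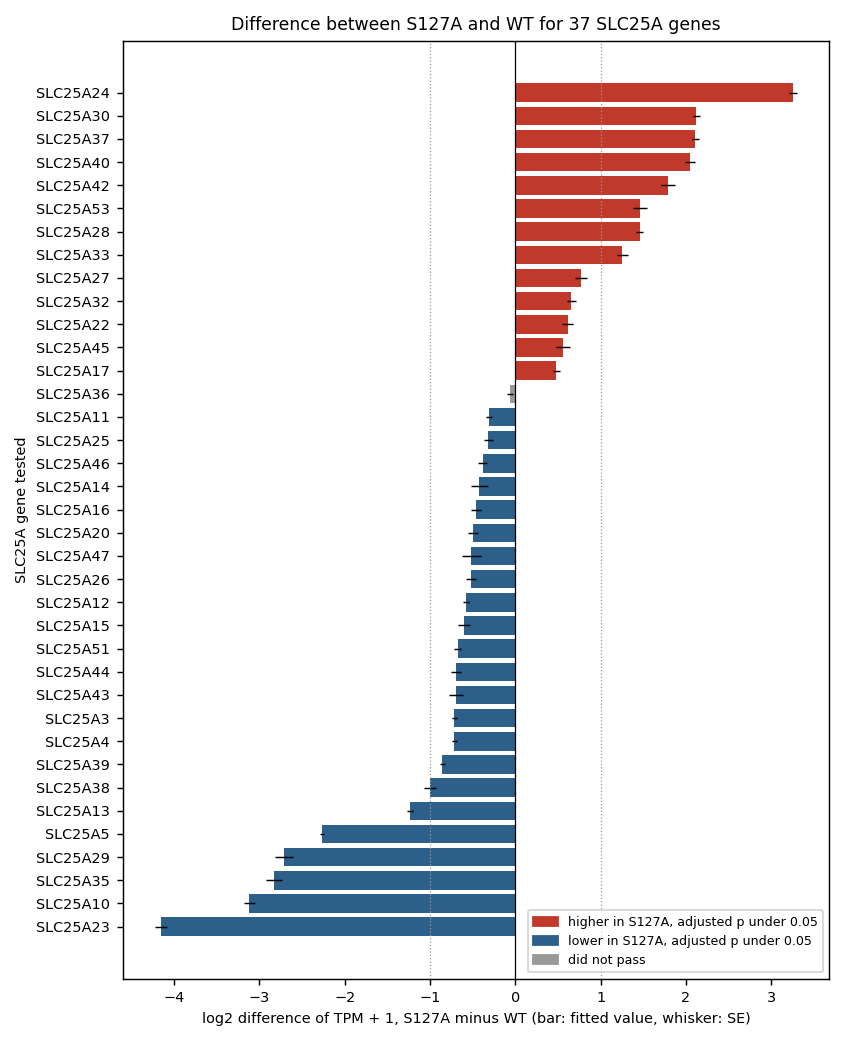
Log2 difference of TPM + 1, S127A minus WT (horizontal axis), for 37 of the 38 tested carriers in order of size, with the standard error as whiskers and dotted lines at a 2-fold difference. Bars to the right are the 13 carriers higher in S127A and bars to the left 23 of the 24 lower, with SLC25A36, in grey, not passing.

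Carriers of amino acids and glutathione were lower for 5 of 6 (background 49.8%) and higher for 1 (background 40.2%), a class too small to set apart from these backgrounds. The exception was SLC25A40 (chromosome 5, 8422850 to 8454797, plus strand), which with SLC25A39 is known for bringing glutathione into mitochondria. SLC25A40 stood at 69.47, 67.7 and 63.84 TPM in S127A and at 16.79, 14.94 and 14.63 TPM in WT (log2 difference 2.05, SE 0.0574, limma adjusted p = 4.25e-11). SLC25A39, the more abundant of the pair, stood at 190.03, 197.57 and 196.62 TPM in S127A and at 355.3, 346.18 and 357.52 TPM in WT, a fall of 0.85 (SE 0.0292, limma adjusted p = 2.23e-10). The relatives therefore went opposite ways, and SLC25A39 remained the larger part of their summed level, at 74.4% ± 1.13 in S127A and 95.8% ± 0.295 in WT. SLC25A29, a carrier of basic amino acids, stood at 0.74, 1.29 and 1.17 TPM in S127A and at 12.81, 12.94 and 11.66 TPM in WT. Its log2 difference of -2.71 (SE 0.102, limma adjusted p = 5.08e-10) was -1.53 with a pseudocount of 5, and the WT mean was 11.7-fold the S127A mean. SLC25A38, a glycine carrier needed for haem synthesis, averaged 12.7 ± 1.13 TPM in S127A and 26.4 ± 1.71 TPM in WT and lay just short of a 2-fold difference at -0.999. SLC25A44, which carries branched-chain amino acids, averaged 20.7 ± 1.55 TPM in S127A and 34.0 ± 0.737 TPM in WT. SLC25A15, the ornithine carrier of the urea cycle, averaged 6.2 ± 0.525 TPM in S127A and 9.88 ± 0.211 TPM in WT. Those 2 fell by 0.69 and 0.60 on the log2 scale, and their libraries did not overlap between groups.

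Carriers of nucleotides and cofactors split evenly, with 4 higher (background 40.2%), 4 lower (background 49.8%) and 1 that did not pass. Their sum was 269 ± 7.18 TPM in S127A and 249.5 ± 3.31 TPM in WT. The pyrimidine nucleotide carrier SLC25A33, known as a target of insulin and growth factor signalling, stood at 53.04, 46.17 and 51.39 TPM in S127A and at 19.34, 20.11 and 21.98 TPM in WT (log2 difference 1.25, SE 0.0628, limma adjusted p = 5.95e-09). An antisense gene overlaps its exons. Its relative SLC25A36 was the tested carrier whose groups overlapped, with 45.13, 44.01 and 44.22 TPM in S127A and 46.76, 48.04 and 44.63 TPM in WT. The log2 difference of -0.06 (SE 0.0402, limma adjusted p = 0.164) turned to 0.06 with TMM factors and to 0.01 with quantile normalization, and passed under none of the 18 alternatives, whose limma adjusted p ran from 0.071 to 0.841. SLC25A33 thus made up 53.0% ± 1.56 of the pair in S127A and 30.6% ± 2.09 in WT.

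SLC25A42, which carries coenzyme A, stood at 8.01, 7.9 and 8.53 TPM in S127A and at 1.38, 1.72 and 1.88 TPM in WT. It rose by 1.79 on the log2 scale (SE 0.0831, limma adjusted p = 3.15e-09), or by 0.98 with a pseudocount of 5. SLC25A17, the peroxisomal carrier of coenzyme A, FAD and NAD, stood at 78.43, 76.21 and 80.83 TPM in S127A and at 59.07, 54.55 and 54.55 TPM in WT, a rise of 0.48 (SE 0.0423, limma adjusted p = 8.62e-07). It was the most abundant of the cofactor carriers. SLC25A32, which carries folate and FAD, averaged 25.5 ± 0.787 TPM in S127A and 15.8 ± 0.741 TPM in WT and also rose, by 0.65. SLC25A51, which carries NAD into the matrix, averaged 30.3 ± 0.832 TPM in S127A and 49.0 ± 1.97 TPM in WT. SLC25A26, the carrier of S-adenosylmethionine, averaged 15.3 ± 0.747 TPM in S127A and 22.4 ± 1.32 TPM in WT. SLC25A16 averaged 10.6 ± 0.666 TPM in S127A and 15.0 ± 0.369 TPM in WT. These last 3 fell by 0.68, 0.52 and 0.47 on the log2 scale, and Lrig1 on the opposite strand overlaps exons of SLC25A26.

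Among the little-characterised carriers, 2 were higher (background 40.2%) and 4 lower (background 49.8%). SLC25A46, an outer-membrane protein tied to mitochondrial fusion and fission, was the most abundant of them, at 34.44, 34.59 and 33.56 TPM in S127A and 48.03, 41.92 and 44.91 TPM in WT (log2 difference -0.38, SE 0.0509, limma adjusted p = 2.84e-05). A coding gene on the opposite strand overlaps its exons. SLC25A35 stood at 0.22, 0.21 and 0.38 TPM in S127A and at 6.95, 8.43 and 8.8 TPM in WT (log2 difference -2.83, SE 0.0967, limma adjusted p = 2.26e-10). The size of that fall depended on the pseudocount, at -4.49 with 0.1 and -1.31 with 5, and the gene overlaps exons of Rangrf on the opposite strand. SLC25A53 averaged 2.73 ± 0.309 TPM in S127A and 0.353 ± 0.0321 TPM in WT, and rose by 1.46, or by 2.64 with a pseudocount of 0.1 and 0.53 with 5. SLC25A45 averaged 16.8 ± 1.59 TPM in S127A and 11.1 ± 0.811 TPM in WT and rose by 0.56, whereas SLC25A43 averaged 7.3 ± 0.666 TPM in S127A and 12.5 ± 1.07 TPM in WT and fell by 0.70. SLC25A47, a carrier of liver, averaged 3.04 ± 0.397 TPM in S127A and 4.8 ± 0.841 TPM in WT. Its difference of -0.52 (limma adjusted p = 0.00132) was -0.28 with a pseudocount of 5 and no longer passed with quantile normalization, at -0.20 (limma adjusted p = 0.131).

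The carriers lay on 17 chromosomes, and 2 pairs were neighbours. SLC25A29 and SLC25A47 are annotated head to head on chromosome 12 with 162 bases between their outermost GENCODE ends. Both were lower in S127A (background 49.8%), by log2 differences of -2.71 and -0.52. The difference of SLC25A47 no longer passed with quantile normalization, at -0.20 (limma adjusted p = 0.131). SLC25A43 and SLC25A5 follow each other on chromosome X, 18448 bases apart, and both were lower (background 49.8%), by -0.70 and -2.27. With 63.2% of tested carriers lower, a shared direction says little about neighbours.

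Carrier proteins reach the inner membrane through a dedicated import route, and 8 of 9 tested genes of that route changed, 2 higher and 6 lower in S127A. That share of 88.9% was near the background of 90.0%. The small chaperones of the intermembrane space went both ways. TIMM13 averaged 62.6 ± 1.73 TPM in S127A and 144 ± 5.0 TPM in WT, and its partner TIMM8A averaged 135 ± 5.5 TPM in S127A and 57.6 ± 5.32 TPM in WT. TIMM8B fell by 1.18 and TIMM10B by 2.03 on the log2 scale. TOMM70A, the receptor that binds carriers at the outer membrane, did not pass at -0.03 (limma adjusted p = 0.432). It passed as higher with TMM factors, at 0.09 (limma adjusted p = 0.0418), and with quantile normalization, at 0.10 (limma adjusted p = 0.0268), which made 3 higher and 6 lower, and with a common total it stood at 0.02 without passing (limma adjusted p = 0.583).

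Transporters of mitochondria outside the family were higher for 5 of 17 (29.4%, background 40.2%) and lower for 11 (64.7%, background 49.8%). The lower ones numbered 10 with TMM factors and with quantile normalization, where ABCB10, a transporter of the inner membrane, no longer passed, at -0.12 and -0.14 (limma adjusted p = 0.16 and 0.108), against -0.24 (limma adjusted p = 0.0148). It did not pass without WT replicate 3 either, at -0.20 (limma adjusted p = 0.0625). TSPO, a cholesterol-binding protein of the outer membrane, stood at 566.34, 611.09 and 582.63 TPM in S127A and at 119.73, 116.44 and 114.33 TPM in WT (log2 difference 2.32, SE 0.0346, limma adjusted p = 2.97e-13). MCU, the pore of the calcium uniporter, averaged 29.5 ± 1.3 TPM in S127A and 9.95 ± 0.655 TPM in WT. The outer-membrane channel VDAC1 averaged 285 ± 4.23 TPM in S127A and 538 ± 11.1 TPM in WT, and the sideroflexin SFXN5 fell by 1.88 on the log2 scale, a log2 difference of -1.10 with a pseudocount of 5.

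Enzymes that work on the carried metabolites were higher for 3 of 15 (20.0%, background 40.2%) and lower for 11 (73.3%, background 49.8%) in S127A, with a median log2 difference of -0.88 beside -0.12 over all tested genes. With TMM factors and with quantile normalization 4 were higher and 11 lower. IDH2, the matrix isocitrate dehydrogenase, averaged 51.6 ± 2.93 TPM in S127A and 427 ± 10.4 TPM in WT. ACLY, which splits exported citrate for lipid synthesis, averaged 87.2 ± 2.33 TPM in S127A and 430.2 ± 6.78 TPM in WT. OAT, the ornithine aminotransferase, averaged 67.4 ± 1.97 TPM in S127A and 315 ± 1.79 TPM in WT. GPD1, the cytosolic glycerol phosphate dehydrogenase, averaged 0.8 ± 0.0173 TPM in S127A and 29.5 ± 1.45 TPM in WT. For the malate-aspartate shuttle, GOT1, GOT2, MDH1 and MDH2 were all lower in S127A, by log2 differences of -0.80, -0.59, -1.87 and -0.27, as were its carriers SLC25A11, SLC25A12 and SLC25A13. The difference of MDH2 was -0.15 with TMM factors and -0.09 with quantile normalization. These 4 enzymes were named after their values were seen.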

How the data were processed

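RNA was sequenced from 3 S127A and 3 WT libraries, grouped by sample title. The deposited values are TPM for each gene symbol, in 1 table, per the file headers. Per the submitters' processing notes the build was mm10, whereas aligner, quantifier, annotation and strand were not given in the sources used here. Columns summed to 83.1% to 86.5% of a full TPM total. The table holds no counts, so depth is unknown, no counting error was given and no count model was run.

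Genes with a mean of at least 1 TPM over 6 libraries were tested on log2(TPM + 1) with limma 3.58.1 in R 4.3.3 (mean-variance trend, genotype as the only term, two-sided), adjusted by Benjamini-Hochberg over 10348 genes at 0.05. The fit was tested on simulated data. The remaining work used Python 3.11.15. All 42 carriers matched a mouse gene of GENCODE M21 (mm10) by symbol in upper case. Promoter sequences are from RefSeq (GRCm38.p6).

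The members, lists and tests were chosen with earlier results of these data known. Values in every library were given only for carriers with reported values. These were taken from the 12 tested carriers with the largest differences and a group mean of at least 5 TPM. The most abundant tested carrier of each class and sets of close relatives were added. The values of 1 carrier are not reported here, though it stayed in counts, sums and fits. From each context list up to 4 tested genes were named by smallest adjusted p. UCP1, UCP3, TOMM70A, ABCB10, MPC2, 4 shuttle enzymes and single markers were named outside this rule, after their values were seen. Alternatives were the pseudocount, the filter, 3 scalings (TMM factors computed on the TPM values, a common total, quantile normalization), no trend, robust fitting, sample weights, identical symbols counted once, leaving out each library, and a replicate block.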

Additional observations from a re-analysis of the deposited data

How the results depend on the processing

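The count of 37 changed carriers stayed between 33 and 39 under 18 alternatives, with 11 to 13 higher, 22 to 26 lower and 12 to 16 changed at least 2-fold. Both ends came from the filter, which alters how many carriers are tested. A mean of at least 5 TPM gave 33 changed carriers and 8159 changed genes in all. No filter gave 39 and 10593. Leaving out each library in turn gave 37 changed carriers every time. Of 662 refits of single carriers, 659 kept direction and side of the threshold. The exceptions were SLC25A36, whose log2 difference turned to 0.0564 under TMM factors and 0.0102 under quantile normalization, and SLC25A47, which no longer passed with quantile normalization. The cause was not tested. Among context genes, TOMM70A turned to 0.0883 with TMM factors and 0.0953 under quantile normalization, where it passed as higher (limma adjusted p = 0.0418 and 0.0268), to 0.0222 with a common total, and ran from -0.0676 to 0.0002 with a library left out. MPC2 turned to 0.0242 with TMM factors, and passed as lower without WT replicate 2, at -0.1547 (limma adjusted p = 0.0337). ABCB10 no longer passed with TMM factors, under quantile normalization or without WT replicate 3 (limma adjusted p = 0.16, 0.108 and 0.0625). Deviations from the group means correlated at 0.117, 0.0174 and 0.0279 for libraries that share a replicate number. For libraries with unlike numbers the correlations ran from -0.0757 to 0.0544. With 3 libraries in a group these values cannot settle whether the replicate numbers pair the libraries. With a replicate block 37 carriers changed, 13 higher and 24 lower, 15 of them at least 2-fold, and 9339 genes changed in all, against 9315 without the block. The smallest changes are limited by the spread of 3 libraries, and the sizes of carriers near 0 in a group by the pseudocount.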
